A study of Drosophila melanogaster with 4 samples.

Results

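Drsl5, BomBc2 and spirit are 3 genes of the humoral immune response of Drosophila melanogaster, measured here in heads of males fed strychnine. They were taken from 6793 named genes on the array by their gene symbol. The genes were selected on the measured values themselves, negative centred log ratios in these same arrays, so their low values are described without a test. The genes held 8 spots on the slide, of which 6 carried a value. Drsl5 (gene ID 38409) had 1 pair of spots and spirit (gene ID 31797) had 1 pair. BomBc2 (gene ID 37102) had a pair with values and a second pair with none on any array.

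In the Toll pathway of flies, recognition of fungi or Gram-positive bacteria starts a cascade of secreted serine proteases. The cascade cuts the ligand Spätzle, which binds the receptor Toll, and NF-kappaB factors then switch on genes for secreted peptides, largely in the fat body. Spirit is a protease of the cascade that acts before the Spätzle-processing enzyme. BomBc2 belongs to the Bomanins, short secreted peptides induced by Toll signalling. Drsl5 is a relative of the antifungal peptide Drosomycin, a standard readout of Toll activity. The set thus holds 1 upstream protease and 2 peptide effectors.

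The flies were unmated Oregon-R wild-type males, aged 3 to 4 days at the start and kept at 30 to a vial. Treated males ate food with strychnine, a convulsant alkaloid, at 3.33 mg/ml for 7 days, and controls ate normal food for the same time. RNA from pooled heads of a treated and a control set was hybridised together on each of 4 two-colour cDNA arrays, labelled as 4 biological replicates. Cy5 marked the treated RNA on replicates 1 and 2, and Cy3 marked it on replicates 3 and 4. A pooled whole head holds brain, eye, fat body, muscle and blood cells, so fewer cells of a type and less RNA per cell cannot be told apart.

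Replicates 1 and 3 held equal numbers at 7643 of 7643 spots with a value in both, in spite of opposite dye labels. They were counted as 1 sample, called the shared set, which leaves 3 distinct sets of values for each gene. The sources used here do not say whether a positive value means more treated RNA or more Cy5. No value below is called an increase or a decrease after strychnine, and every direction turns if numerator and denominator are exchanged. If positive means more Cy5, a positive value stands for treated RNA on replicate 2 but for control RNA on replicate 4. The direction of the shared set is then unknown, and a mean over the sets is not a treated-to-control ratio. Between 7647 and 9725 spots of 27648 held a value on an array, and array medians lay between -0.621 and -0.121. How bright the spots were is not known from ratios alone, and the number of arrays limits the precision. The slide carried 6 of 10 listed photoreceptor markers, and 5 of these 6 had a value on at least 1 array, but only 2 in all 3 sets. Of 8 listed neuron markers it carried 2, of which 1 had a value in all 3 sets.

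Drsl5 was far below the array median in the shared set and on replicate 2, and at the median on replicate 4. Its 2 spots read -1.813 and -2.135 in the shared set as deposited log2 ratios. They read -2.106 and -2.036 on replicate 2, and -0.678 and -0.557 on replicate 4. The duplicate spots lay within 0.322 of each other on every array, while both spots on replicate 4 read more than 1 log2 unit above those of the other sets.

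BomBc2 was moderately low everywhere. Its spots read -0.873 and -0.626 in the shared set, -0.811 and -0.658 on replicate 2, and -1.421 and -1.071 on replicate 4. All 6 readings were below their array's median. The pairs differed by 0.153 to 0.350, against a median difference between duplicate spots of 0.132 to 0.168 over all spots.

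For spirit the low arrays were other ones than for Drsl5. Its spots read -0.727 and -0.571 in the shared set, -2.186 and -1.839 on replicate 2, and -2.183 and -2.270 on replicate 4. Replicates 2 and 4, which carried opposite dyes, were both low, and the shared set was the highest of the 3.

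**Figure D1:**
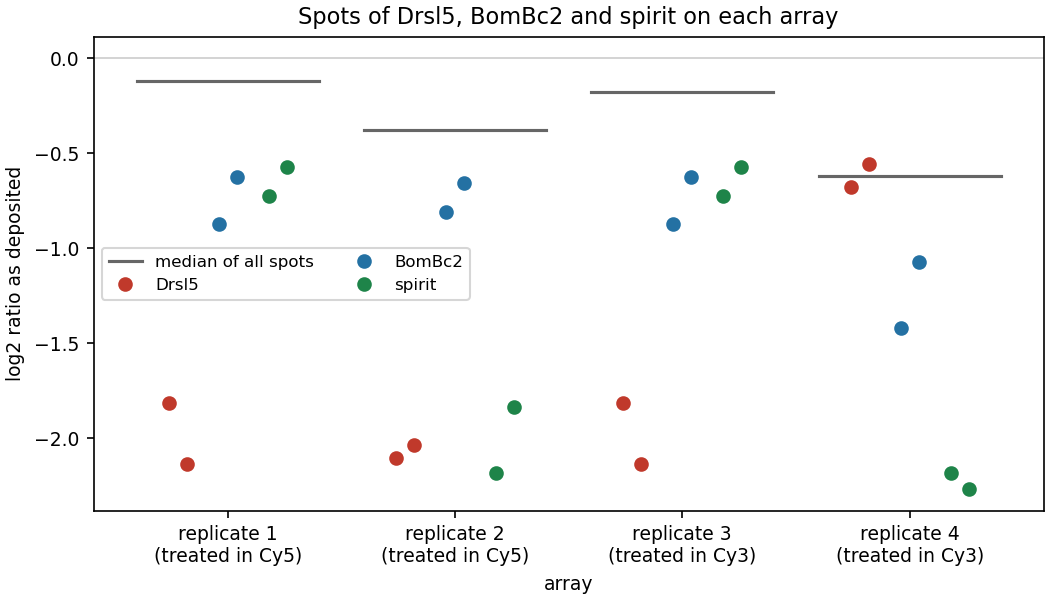
Log2 ratio as deposited (vertical axis) of each spot of Drsl5, BomBc2 and spirit on the 4 arrays, with the median of all spots on that array as a grey line. Replicates 1 and 3 are identical; Drsl5 lies near the array median on replicate 4 only, and spirit is lowest on replicates 2 and 4.

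Spots were averaged by gene and each set was centred on its median over all units (named genes and unnamed spot pairs). Drsl5 then lay at -1.85 in the shared set, and at -1.70 and -0.0025 on replicates 2 and 4, which averaged -1.19 ± 1.03 (SD, n = 3 sets). Only 4 of the 2027 named genes with a value in all 3 sets were lower in the shared set and 21 on replicate 2, but 1045 were lower on replicate 4. Its SD was larger than that of 98.3% of these genes, whose median SD was 0.318. With centring on the median over spots the replicate 4 value was 0.0035, so its sign there depends on the centring.

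Spirit lay at -0.53 in the shared set, and at -1.64 and -1.61 on replicates 2 and 4. Its mean of -1.26 ± 0.635 (SD, n = 3 sets) corresponds to a 2.40-fold difference between the channels relative to the array median. In the shared set 350 named genes were lower, on replicate 2 25 and on replicate 4 13. Spirit was thus nearest the median in the shared set, where Drsl5 was lowest.

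BomBc2 lay at -0.63, -0.37 and -0.63 in the same order, a mean of -0.54 ± 0.153 (SD, n = 3 sets), or 1.46-fold. It varied least of the 3 genes and was also the nearest to the median, with 338 named genes of lower mean, against 14 for Drsl5 and 12 for spirit. All 3 genes were negative in 3 of 3 sets, which the choice of genes fixes, and so were 29.4% of the 2027 named genes. In the same data 401 of 4002 units (10.0%) differed from 0 in the mean of the sets by limma, 78 of them (1.95%) on the negative side.

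The protease was then compared with the effectors within each array. Spirit minus Drsl5 was 1.33 in the shared set, and 0.059 and -1.61 on replicates 2 and 4, which averaged -0.075 ± 1.47 (SD, n = 3 sets). The difference changed sign between sets, and its exact permutation p (sign flips, two-sided) was 1.00. Spirit minus BomBc2 was 0.10, -1.28 and -0.98, a mean of -0.72 ± 0.725 (SD), with spirit lower in 2 of 3 sets and an exact permutation p of 0.50. Drsl5 minus BomBc2, the comparison of the effectors with each other, was -1.22, -1.34 and 0.63, a mean of -0.64 ± 1.10 (SD, n = 3 sets; exact permutation p = 0.50). After Benjamini-Hochberg adjustment over the 3 pairs these exact p-values were 1.00, 0.75 and 0.75. With 3 sets no p below 0.25 is possible, so the test cannot separate the genes. The differences also use the values by which the genes were chosen, so they are given as description only. In none of the pairs did all sets run one way.

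The dye exchange gives a second contrast, which differs from the mean by which the genes were chosen. It is built from the same arrays, so its p-values for the 3 genes are not independent of that choice. If a positive value means more Cy5, the treated-to-control log2 ratio is the difference between replicates 2 and 4 divided by 2. If the deposited values are already treated over control, this difference only measures how far the arrays disagree. Limma called 11 of 4002 units (0.275%) in this contrast, with 91 (2.27%) at an unadjusted p under 0.05. None of the 3 genes passed. Drsl5 was at -0.73 ± 0.465 (SE pooled over all units; 95% interval -1.64 to 0.19; adjusted p = 1.00). BomBc2 was at 0.26 (interval -0.66 to 1.17) and spirit at 0.11 (interval -0.80 to 1.02), each with the same SE and an adjusted p of 1.00. With each array centred first, limma gave 0 calls (164, or 4.10%, at an unadjusted p under 0.05). Drsl5 then had -0.85 ± 0.342 (SE; adjusted p = 0.978), and spirit turned to -0.016 (adjusted p = 0.998).

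**Figure D2:**
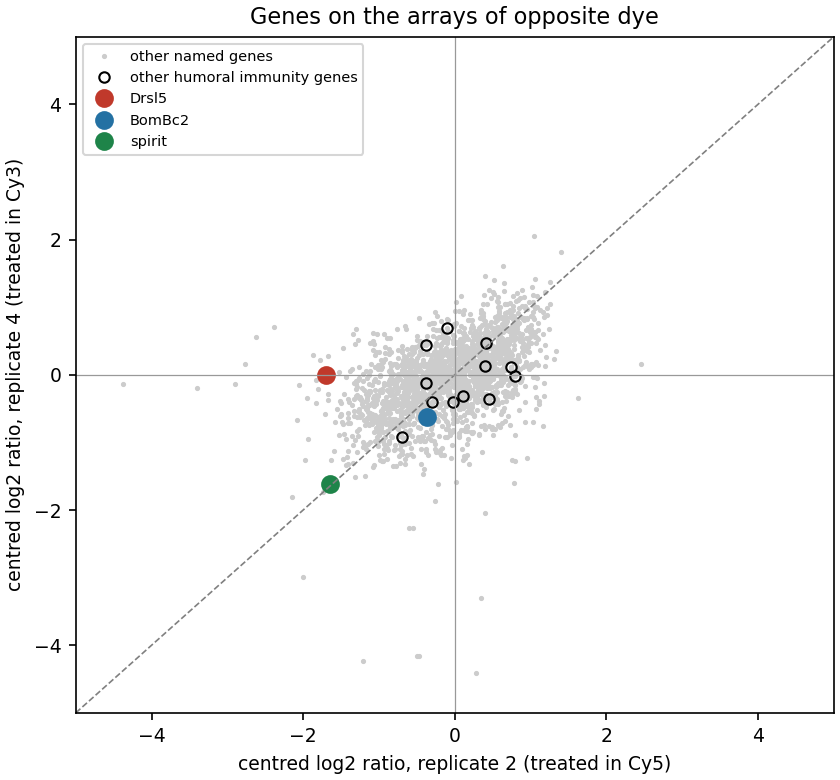
Centred log2 ratio on replicate 2 (horizontal, treated RNA in Cy5) against replicate 4 (vertical, treated RNA in Cy3) for named genes with a value in all 3 sets; the dashed line marks equal values. Spirit lies on the line at -1.64 and -1.61, BomBc2 near it, and Drsl5 at -1.70 and -0.0025.

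Drsl5 and spirit sat in blocks of the slide where ratios were low in general. The slide was read as 48 blocks of spots in order of spot number. Drsl5 lay in block 36, whose centred median was the lowest of all blocks in the shared set (-0.48) and on replicate 2 (-1.05), and the sixth lowest on replicate 4 (-0.58). Spirit lay in block 44, the lowest on replicate 4 (-0.88), the second lowest on replicate 2 (-1.01) and the sixth lowest in the shared set (-0.33). BomBc2 lay in block 39, with medians of -0.17, -0.35 and -0.28. The blocks of Drsl5 and spirit were thus among the 6 lowest in every set, and that of BomBc2 was nearer the middle.

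Drsl5 minus the median of its own block was -1.37 in the shared set and -0.65 on replicate 2, but 0.58 on replicate 4. Spirit minus its block median was -0.20, -0.63 and -0.73, and BomBc2 minus its own was -0.46, -0.015 and -0.35. In the shared set 0.316% of the 316 spots of its block were lower than Drsl5, and 92.8% of 320 were lower on replicate 4. After block medians and a smooth surface within each block were removed, Drsl5 was at -1.27, -0.46 and 0.68, a mean of -0.35 ± 0.979 (SD, n = 3 sets). Spirit was at -0.17, -1.09 and -0.56, a mean of -0.61 ± 0.465 (SD), and was the 1 gene of the set still negative in 3 of 3 sets, as were 24.8% of named genes. BomBc2 was at -0.029, 0.18 and -0.13, a mean of 0.0084 ± 0.158 (SD). By these corrected means 269 named genes were lower than Drsl5, 75 lower than spirit and 1204 lower than BomBc2. Each gene was read at 1 place on the slide, so position and gene cannot be told apart for any of them.

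**Figure D3:**
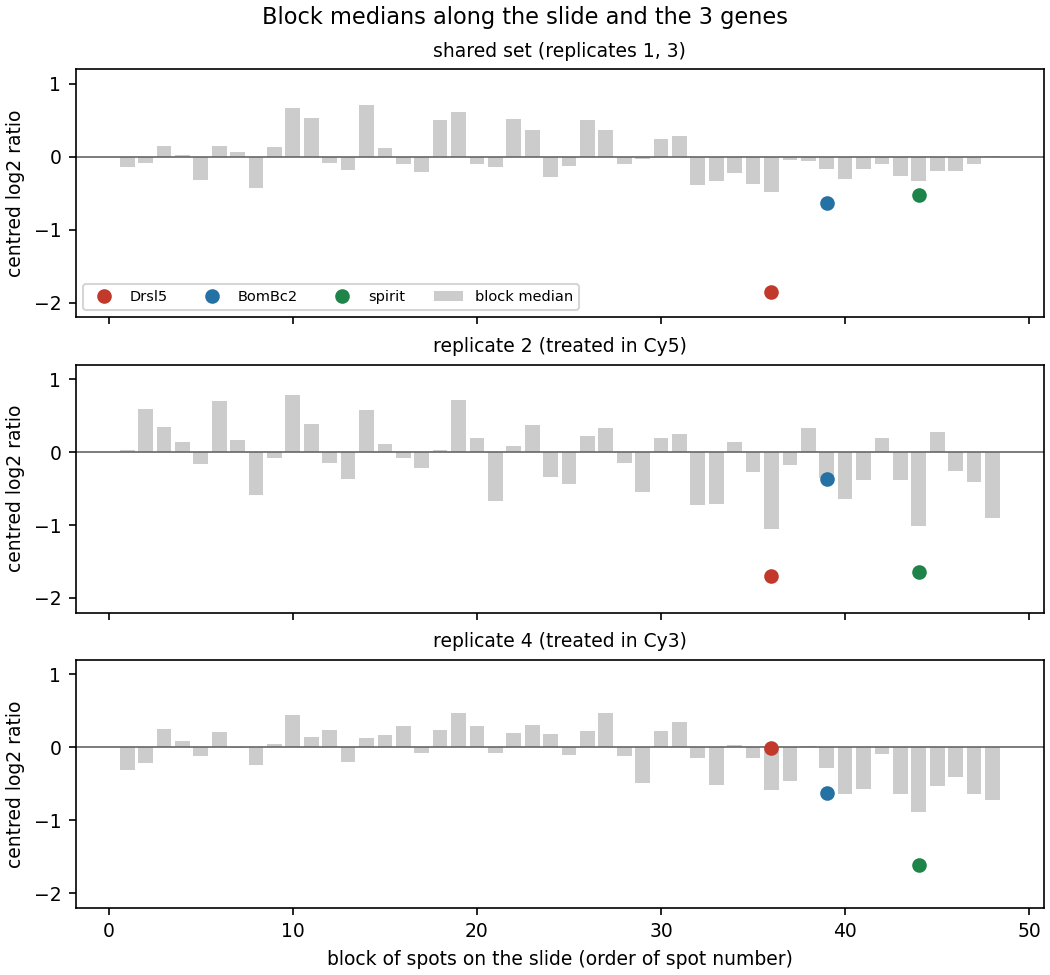
Median centred log2 ratio of each of the 48 blocks of spots along the slide (grey bars) for the 3 sets, with the centred value of each gene at its block. Drsl5 (block 36) and spirit (block 44) stand in blocks with medians down to -1.05 and -1.01, and BomBc2 (block 39) in a block with medians between -0.35 and -0.17.

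The remaining genes of humoral immunity were read from lists by role. Of 127 listed genes 42 were on the array, 17 had a value on at least 1 array and 15 had one in all 3 sets, which leaves 12 beside the 3 genes. The mean of the sets passed the threshold (limma, adjusted p under 0.05) for 0 of these 12, against 6.61% of all named genes, and 1 of 12 had an unadjusted p under 0.05, against 31.2%. Their median was 0.033, beside -0.071 for all named genes. After the position correction it was -0.043, beside -0.029 for all units. Before that correction 2 of 12 were negative in all 3 sets, against 29.4% of named genes. In the dye-turned contrast 0 of 12 passed, where 0.275% of all units did.

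In the extracellular cascade SPE and nec had values in all sets beside spirit. SPE, the Spätzle-processing enzyme that acts after spirit, was at 0.82 in the shared set, and at -0.70 and -0.92 on replicates 2 and 4. The mean was -0.27 (SD 0.945, n = 3 sets; limma adjusted p = 0.615). Like spirit, SPE was lower on replicates 2 and 4 than in the shared set, but its sign differed between the sets. The serpin nec (Necrotic), an inhibitor in the cascade, was at -1.30, -0.38 and -0.12, a mean of -0.60 (adjusted p = 0.157). It was negative in all 3 sets and lowest in the shared set, where SPE was highest. The slide also carried grass, psh, Hayan and spz, which had no value on any array.

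Inside the cell, the adaptor tub (Tube) had a mean of 0.15 and the NF-kappaB factor Dif one of 0.023 (limma adjusted p = 0.720 and 0.948). Both had values of either sign across the sets. Pli (Pellino), a ubiquitin ligase acting on Toll signalling, was at 1.42, 0.79 and -0.018, a mean of 0.73 with an unadjusted p of 0.0384 and an adjusted p of 0.124 (limma). Without replicate 4 its mean was 1.10 and its adjusted p 0.0326 (limma), so the call on Pli turned on that array. Tl, Myd88, pll and dl were on the slide with no value.

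Among the peptides, 1 relative of Drsl5 and 2 of BomBc2 had values in all sets. Drs, which encodes Drosomycin itself, was at 0.039, 0.40 and 0.14, a mean of 0.19 (SD 0.185, n = 3 sets, limma adjusted p = 0.527). It was positive in each set, though close to 0 in the shared set. Drsl5 was clearly negative only in the shared set and on replicate 2. On replicate 4 Drsl5 was at -0.0025, and at 0.68 after the position correction. Spots of related genes may share labelled RNA on cDNA arrays, which was not tested. The Bomanin BomT3 was at -0.82, -0.021 and -0.41, a mean of -0.42 (adjusted p = 0.228), and BomT2 at 0.053, -0.30 and -0.41, a mean of -0.22 (adjusted p = 0.474). BomBc2 had the lowest mean of 3 measured Bomanins, with a gap to BomT3 smaller than the SD of BomT3 (0.401). After the position correction the order turned, with BomT3 at -0.85, BomT2 at -0.18 and BomBc2 at 0.0084. None of the 14 listed attacins, cecropins and other antimicrobial peptides was named on the array.

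**Figure D4:**
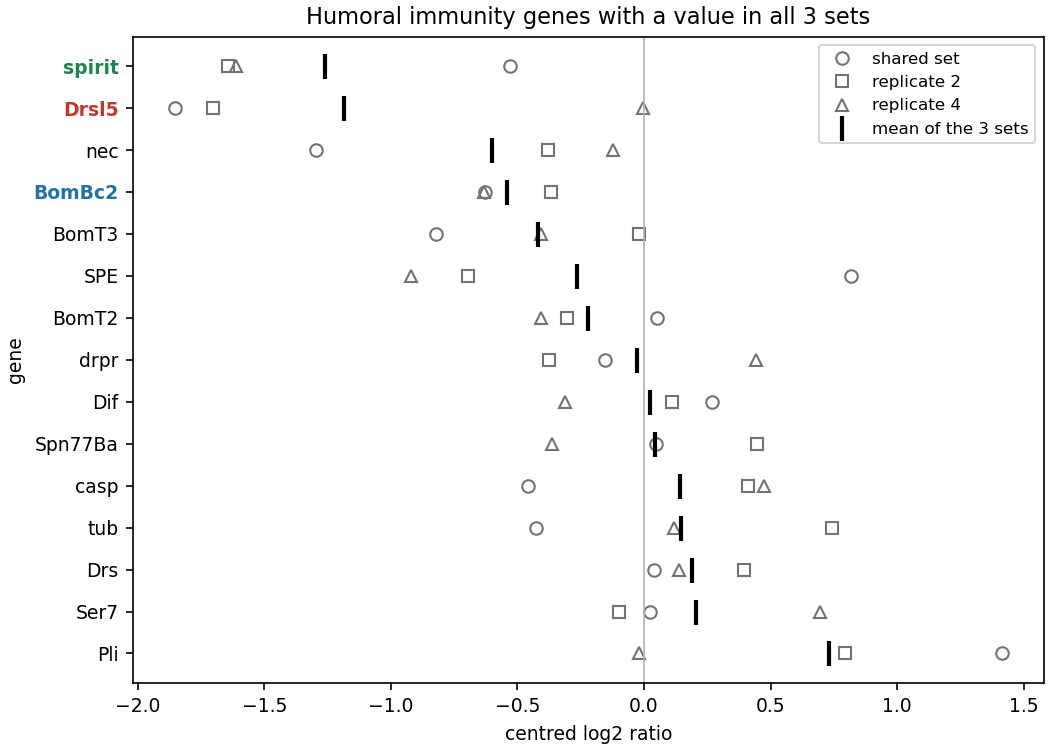
Centred log2 ratio (horizontal axis) of the 15 humoral immunity genes with a value in all 3 sets, with a marker for each set and the mean as a bar, ordered by mean. Before any position correction spirit and Drsl5 have the lowest means, -1.26 and -1.19, and Pli the highest, 0.73.

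The position correction changed the order of the 15 means. The lowest were then nec at -0.90 and BomT3 at -0.85, below spirit at -0.61 and Drsl5 at -0.35. The highest was SPE at 0.39, above Pli at 0.17.

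Outside the Toll pathway, casp (Caspar), an inhibitor of Imd signalling, was the 1 Imd gene in all sets, with a mean of 0.14 (limma adjusted p = 0.712). The serpin Spn77Ba, which restrains melanization, had a mean of 0.044, and the engulfment receptor drpr (Draper) one of -0.029. Ser7, a serine protease gene, had a mean of 0.21. Limma gave these 3 genes adjusted p-values of 0.557 to 0.942.

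Markers of fat body and blood cells, which make many of these peptides, were read beside them. Of 12 fat body markers 5 had values in all sets, of which 3 had a negative mean, as did 56.1% of all named genes. The means were -1.63 for Yp2, -0.18 for Lsp2, -0.061 for apolpp, 0.31 for Mtp and 0.76 for Fbp2. Whether Yp2, a yolk protein gene, marks fat body in males, the sex used here, was not tested. In the mean of the sets 1 of 5 passed, Fbp2 (limma adjusted p = 0.0491), against 6.61% of all named genes, and it did not pass after the position correction (mean 0.39, adjusted p = 0.197). In the dye-turned contrast 1 of 5 passed, Yp2 at 1.97 (limma adjusted p = 0.0145), against 0.275% of all units. Replicate 4 gave Yp2 a centred value of -4.16, while replicate 2 gave -0.47 and the shared set -0.26 (SD 2.19, n = 3 sets). The low mean of Yp2 and its call thus rested largely on replicate 4. When the arrays were centred or corrected for position, 0 units passed in this contrast, so Yp2 did not pass either. Pxn, the 1 blood cell marker of 9 with values in all sets, had a mean of 0.48 (limma adjusted p = 0.141). A part of these cells in the values of the 3 genes was not tested.

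The genes most like each of the 3 were sought by Euclidean distance over the 3 centred sets, among 2026 other named genes. Nearest to spirit were alphaSnap, CG6567, smash, Hibch and NC2alpha, at distances of 0.359 to 0.498 log2 units. Of these, Hibch and NC2alpha lay in the same block of spots as spirit. Nearest to Drsl5 were CG6693, CG32379, CG3823, CG11550 and CG34159, at 0.367 to 0.724, with CG3823 in the same block. Nearest to BomBc2 were Jheh2, zyd, Npc2b, CG31142 and Send1, at 0.0792 to 0.165, none in its block. Distances among the 3 genes were 1.61 between BomBc2 and spirit, 1.92 between Drsl5 and BomBc2 and 2.09 between Drsl5 and spirit. None of the 3 was among the nearest 5 of another, so these distances are larger by construction. They were not compared with those of other gene pairs. After the position correction 2 of the 5 genes nearest to Drsl5 were again among its nearest 5, and 0 for BomBc2 and spirit.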

How the data were processed

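The deposited log2 ratios were used as the authors left them. Per the series' design text, the authors quantified images in GenePix Pro 6.0 and applied a ratio normalization in Acuity 4.0. They dropped spots that were flagged, had 3% or more of saturated pixels, a channel regression R2 under 0.6 or a signal to noise ratio under 3, so a gene without a value may be dim. Log base, centring and direction of the values were not stated, and base 2 was assumed.

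Symbols came from the platform annotation: 15116 spots had 1 symbol, 102 several and 12430 none. A RefSeq table (Release 6) held the gene IDs of 14894 spots, with 0 symbols updated. The annotation names no build, so no coordinates are given. Spots were averaged by gene, unnamed spots by neighbouring pair, and each set was centred on its median over units. The 4002 units with a value in all 3 sets (2027 named) were fitted with limma 3.58.1 (R 4.3.3). Tests were two-sided with Benjamini-Hochberg adjustment and a threshold of 0.05. The mean was tested against 0. The dye-turned contrast used values as deposited, with a dye term and the shared set coded 0, and its spread was fully pooled. All p-values rest on the spread among 3 sets. The position correction subtracted the median of each of 48 blocks and a robust loess within blocks (span 0.4). The fits were tested on simulated data. Alternatives were other centring and normalization, other codings and leaving out each replicate. The 3 genes and the lists were chosen with earlier results of these data known. Listed genes with values in all sets, and the 5 named genes nearest to each of the 3, were named by rule.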

Additional observations from a re-analysis of the deposited data

How the results depend on the processing

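No paired analysis was possible because there is 1 group and each array already sets a treated pool against its control. Over all alternatives the mean of Drsl5 stayed negative, but it moved to -0.49 with block medians alone subtracted and -0.35 with the full position correction. It stayed within 1 SD of -1.19, which is a wide margin for a gene with an SD of 1.03. BomBc2 moved to -0.91 without centring, to -0.28 with block medians alone subtracted (an alternative chosen after seeing the data, as was centring on spot medians) and to 0.0084 with the full position correction. Spirit moved to -0.53 with block medians subtracted and -0.61 with the full correction. With 1 replicate left out the means ranged from -1.78 to -0.93 for Drsl5, -0.63 to -0.50 for BomBc2 and -1.26 to -1.07 for spirit. The lowest Drsl5 value was without replicate 4. Spirit minus Drsl5 turned to 0.27 with all 4 columns as labelled and 0.11 with quantile normalization, and ranged from -0.14 to 0.69 with 1 replicate left out. Spirit minus BomBc2 ranged from -0.72 to -0.44 and Drsl5 minus BomBc2 from -1.28 to -0.30 in the same way.

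In the dye-turned contrast spirit turned to -0.016 with each array centred and -0.26 after the position correction, and ranged from -0.29 without replicate 1 to 0.45 without replicate 3. Replicates 1 and 3 hold the same spirit values, so leaving either out only codes the shared set by the dye of the other. Counts below with replicate 1 or 3 left out of this contrast use the same coding. Without replicate 2 or 4 that contrast has no residual degrees of freedom. Its count of 11 units became 0 with centring, 0 with position correction, 0 with all 4 columns as labelled, 2 without the dye term, and 3 to 27 with replicate 1 or 3 left out. The 401 of 4002 units in the mean of the sets became 0 without centring, 0 with scale normalization, 0 after the position correction and 9 with block medians subtracted. With all 4 columns as labelled the count was 910 of 3189, but that counts the identical replicates 1 and 3 as separate arrays, which understates the spread. With 1 replicate left out it ranged from 8 of 4237 to 588 of 4323. Centring on spot medians gave 352. The split of 323 positive and 78 negative became 416 and 185 with quantile normalization, 464 and 446 with all 4 columns as labelled, and 415 and 173 without replicate 4. It was 41 and 0 without replicate 1, 8 and 0 without replicate 2, and 9 and 0 with block medians subtracted. Only 3190 units were tested without replicate 1, while without replicate 3 the count was 400 of 4001. Replicates 1 and 3 hold equal values where both have one. Leaving out replicate 1 thus mainly changes which units are tested and the centring. The count of the 12 immunity genes past the threshold stayed 0 except for 1 (Pli) without replicate 4, a range of 0 to 1. The causes were not tested.

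Means of genes near 0 changed sign. Without centring, where the median of all units was -0.40, tub was at -0.22, Dif at -0.35, Drs at -0.18, casp at -0.23, Spn77Ba at -0.32 and Ser7 at -0.16. After the position correction SPE was at 0.39, tub at -0.20, Dif at -0.24, casp at -0.13 and drpr at 0.20. With block medians subtracted SPE was at 0.25, tub at -0.20, Dif at -0.43 and drpr at 0.17. SPE was at 0.018 with all 4 columns as labelled, Dif at -0.0030 with quantile normalization, and drpr at 0.012 with scale and 0.023 with quantile normalization. Leaving out 1 replicate gave SPE values from -0.27 to 0.061, tub from -0.15 to 0.16, Dif from -0.021 to 0.19, casp from -0.024 to 0.22, Spn77Ba from -0.16 to 0.25, Ser7 from -0.038 to 0.36 and drpr from -0.27 to 0.14.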

Other observations

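Genes that lie next to the 3 in the RefSeq order were read over 10 protein-coding genes on each side. Around Drsl5, 9 of 20 were on the array and 3 had values in all sets, with means between -0.30 for Gtpx and 0.19 for Strip. Around BomBc2, in the Bomanin cluster, BomT2 and GstE2 had values in all sets, at -0.22 and -0.11. Around spirit, Ppt1 had the lowest mean, -0.49, and Crag the highest, 0.61. Neighbours with values in all sets numbered 3 around Drsl5, 2 around BomBc2 and 5 around spirit. Of these, 0 passed the threshold in the mean of the sets (limma), against 6.61% of all named genes. With so few genes, 0 calls are not a result about the neighbours. Of the other immunity genes, sphe, a serine protease homologue gene, and yellow-f2, an enzyme gene of melanin synthesis, had a value on replicate 4 alone, at 1.29 and 1.02 after centring.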
